A study of Mus musculus with 4 samples.

Results

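The constitutive proteasome genes were compared between Tet2 knockout (KO) and wild-type (WT) leukemic cells of the mouse. They were chosen by symbol: every entry that starts with Psma, Psmb, Psmc, Psmd or Psmg followed by a digit, without the immunoproteasome subunits Psmb8, Psmb9 and Psmb10. The rule found 41 of 24497 mouse entries. Of these, 16 encode subunits of the 20S core, 17 encode subunits of the 19S cap and 7 encode assembly factors. The last, Psmc3ip, is a meiotic recombination factor that shares only the prefix and is in no class; its log2 change was -0.10 (adjusted p = 0.498, limma as below). The libraries held mRNA of acute myeloid leukemia cells carrying NRAS and AE9a, a truncated AML1-ETO fusion. KO cells (n = 2 libraries) were raised from bone marrow stem cells of Tet2-/- mice, whose Tet2 gene lacks exons 8 to 10, and WT cells (n = 2 libraries) from wild-type mice. Both groups carried the same oncogenes. Both grew in RPMI medium that held 50 ng/ml of SCF, 10 ng/ml of each of the interleukins IL-3 and IL-6, and, for selection, 1 mg/ml of G418 with 2 µg/ml of puromycin. The labels do not say whether replicates were separate cultures, clones or mice, so each p below measures the spread among these 4 libraries, and that spread may be technical.

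The proteasome degrades proteins tagged with ubiquitin. Its 20S core is a barrel of stacked rings, in which the outer alpha rings gate the entrance and the inner beta rings hold the proteolytic sites. The 19S cap binds ubiquitin chains, removes them and feeds the unfolded substrate into the core with a ring of ATPases, and dedicated chaperones assemble core and cap. Subunit genes are known to be transcribed together, in mammals through the factor Nfe2l1 when proteolysis is impaired.

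Values are TPM, a transcript abundance corrected for transcript length and scaled to the same total in each library, so levels can be compared between genes. Changes are KO minus WT on the log2(TPM + 1) scale from limma, with the moderated standard error (SE). A gene was called at a Benjamini-Hochberg adjusted p under 0.05 over the 11837 genes that reached 1 TPM in 2 or more libraries. Read depth is unknown. Tet2 itself was 53.5 and 52.8 TPM in KO libraries, against 35.05 and 39.95 TPM in WT libraries, a value over the whole gene that does not check the loss of its exons. All 8 markers of leukemic myeloid progenitors passed the filter, of which 5 rose (Kit, Cd34, Mpo, Ptprc and Cebpa) and 2 fell (Cd33 and Spi1). Their sum was 0.206% to 0.21% of the TPM in KO libraries, against 0.172% to 0.18% in WT libraries. All 7 markers of B and T cells stayed under 1 TPM. The 14 granulocyte markers all fell, and their sum was 2.39% to 2.42% of the TPM in KO libraries, against 4.68% to 4.75% in WT libraries. Of 8 macrophage markers 1 rose and 5 fell, and their sum was 0.0756% to 0.0774% of the TPM in KO libraries, against 0.204% to 0.208% in WT libraries. Ribosomal precursor RNA (Rn45s) was 14263 and 8813 TPM in KO libraries, highest in KO replicate 1, against 5704 and 4350 TPM in WT libraries. The part of these differences in the results below was not tested, and in bulk RNA fewer cells of a type and less RNA per cell cannot be told apart.

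Shown first are promoter windows of the 5 members with the lowest log2 changes (Psmc5, Psmc4, Psmb6, Psmb5 and Psmd6). Psmb5 among them was not called. The window of Psmc6, the ATPase gene that rose, is shown last. Each window holds 250 bases before to 50 bases after the transcription start, read 5′ to 3′ along the gene, from RefSeq on GRCm38.p6. They lie at chr11:106255935-106256234 (plus strand), chr7:28050043-28050342 (minus), chr11:70525107-70525406 (plus), chr14:54617946-54618245 (minus), chr14:14120896-14121195 (minus) and chr14:45329574-45329873 (plus). Capitals mark matches, on either strand, to any of 4 motifs: the core of the antioxidant response element that NFE2-like factors bind (TGACNNNGC), the CCAAT box, the motif of nuclear respiratory factor 1 (GCGCA, any base, GCGC) and an ETS motif (CCGGAAG).
Psmc5: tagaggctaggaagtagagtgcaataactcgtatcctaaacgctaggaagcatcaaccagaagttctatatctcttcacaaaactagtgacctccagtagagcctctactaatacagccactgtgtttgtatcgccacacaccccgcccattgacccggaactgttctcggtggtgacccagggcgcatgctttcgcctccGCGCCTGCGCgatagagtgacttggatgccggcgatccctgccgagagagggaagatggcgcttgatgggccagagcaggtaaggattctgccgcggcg
Psmc4: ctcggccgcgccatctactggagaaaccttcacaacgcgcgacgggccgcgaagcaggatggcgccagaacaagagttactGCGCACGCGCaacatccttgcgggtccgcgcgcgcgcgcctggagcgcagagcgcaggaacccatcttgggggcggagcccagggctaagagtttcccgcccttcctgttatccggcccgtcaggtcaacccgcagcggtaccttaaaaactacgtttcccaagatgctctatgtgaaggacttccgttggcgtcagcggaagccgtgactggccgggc
Psmb6: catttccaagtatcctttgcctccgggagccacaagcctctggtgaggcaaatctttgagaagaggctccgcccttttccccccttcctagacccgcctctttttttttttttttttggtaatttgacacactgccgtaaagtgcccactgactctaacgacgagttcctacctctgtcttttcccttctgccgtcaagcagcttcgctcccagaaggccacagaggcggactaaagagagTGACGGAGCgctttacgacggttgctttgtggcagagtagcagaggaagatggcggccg
Psmb5: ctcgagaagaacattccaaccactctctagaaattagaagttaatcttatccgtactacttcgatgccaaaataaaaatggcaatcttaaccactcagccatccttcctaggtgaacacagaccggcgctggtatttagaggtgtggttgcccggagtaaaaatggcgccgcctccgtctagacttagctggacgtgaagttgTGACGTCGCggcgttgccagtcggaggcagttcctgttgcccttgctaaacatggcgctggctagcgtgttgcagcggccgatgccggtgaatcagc
Psmd6: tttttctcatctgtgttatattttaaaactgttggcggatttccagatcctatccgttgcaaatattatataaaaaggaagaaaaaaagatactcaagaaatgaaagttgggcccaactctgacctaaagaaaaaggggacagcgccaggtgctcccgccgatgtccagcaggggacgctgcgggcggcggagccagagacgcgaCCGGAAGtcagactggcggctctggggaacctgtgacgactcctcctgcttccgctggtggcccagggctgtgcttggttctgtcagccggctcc
Psmc6: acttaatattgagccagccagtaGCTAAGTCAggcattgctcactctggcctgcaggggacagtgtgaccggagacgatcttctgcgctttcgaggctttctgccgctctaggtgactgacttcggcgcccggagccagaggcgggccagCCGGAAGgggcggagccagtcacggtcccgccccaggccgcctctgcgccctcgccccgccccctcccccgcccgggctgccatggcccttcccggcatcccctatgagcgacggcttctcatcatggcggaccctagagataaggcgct
Psmb5 and Psmb6, both genes of catalytic subunits, hold the antioxidant core on the gene's own strand, starting 47 and 9 bases before the transcription start. Psmb7, the other catalytic gene, had no window among those searched. In Psmc6 the antioxidant core lies 227 bases before the start on the other strand, and an ETS motif lies 100 bases before the start. The windows of Psmc4 and Psmc5 hold the nuclear respiratory factor 1 motif, 169 and 49 bases before the start, and that of Psmd6 an ETS motif 45 bases before it. In all, 34 windows of 32 member genes were searched, and Psma8 and Psmg2 were among the members with no window in this search. The antioxidant core was in 14.7% of these windows and in 12.4% of all 32841 RefSeq windows, and the CCAAT box in 35.3% and 37.4%. The ETS motif was in 38.2% of the member windows (12 genes) and in 8.86% of all windows, and the nuclear respiratory factor 1 motif in 20.6% (7 genes) and 4.6%. The set of all windows was not limited to genes expressed here, and no set matched in level was searched. The member windows and the set of all windows were thus not chosen by the same rule, so their shares are a description. These are letter matches, not binding sites.

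Among the members, transcripts of most 19S ATPases and of single core and lid subunits were lower in KO cells, with a difference in mean TPM of down to -20.4% (Psmc5), while 12 of the 15 core genes measured were not called. Of the 40 members that passed the filter, 8 fell, 3 rose and 29 were not called. The called members were 27.5%, against a background of 30.5% of all genes. By direction, 20% of the members fell, where 11.6% of all genes did, and 7.5% rose, where 18.9% of all genes did. Among the 3146 genes averaging at least 50 TPM, 14.9% fell and 25.4% rose. The median log2 change was -0.04 over the members and 0.04 over all genes kept. TPM did not overlap between groups for 17 members that were lower and 9 that were higher in KO libraries (42.5% and 22.5%, against 26.5% and 42.2% of all genes), and 14 overlapped. The members together made up 0.533% and 0.527% of the TPM in KO libraries, against 0.559% and 0.54% in WT libraries. Without KO replicate 1 only 2 members were called and without KO replicate 2 only 1, while among all genes the calls were 1239 and 1288.

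**Figure D1:**
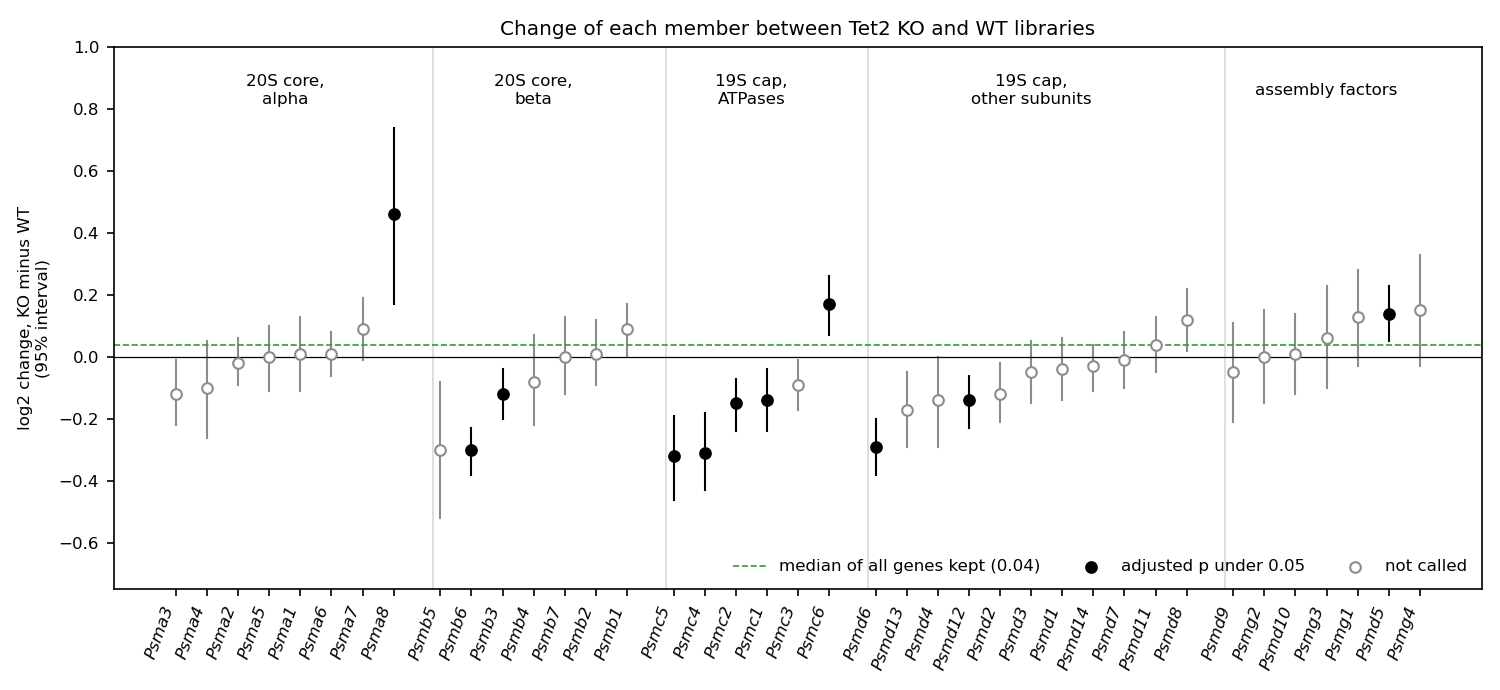
The log2 change of each kept member of the 5 classes, KO minus WT, with its 95% interval from limma, ordered within class. Filled points passed the adjusted p under 0.05 and the dashed line is the median of all genes kept (0.04). Of the 6 ATPase genes 5 lie below 0, while of the 7 assembly factors 1 does.

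In the alpha rings of the core 1 gene of 8 was called (12.5%, against 30.5% of all genes). Psma1 to Psma7, which form the outer rings, were not called by limma (1, Psma3, had an unadjusted p under 0.05), and Psma6 was the most abundant member. Psma6 was 312 and 309.9 TPM in KO libraries, against 311 and 308 TPM in WT libraries. These values overlap, and the 95% interval of its log2 change ran from -0.06 to 0.08. Psma3 was 96.5 and 95.5 TPM in KO libraries, against 108 and 101 TPM in WT libraries (log2 change -0.12, SE 0.043, adjusted p = 0.0943). Psma7 was 162 and 153 TPM in KO libraries, against 150.1 and 146 TPM in WT libraries (log2 change 0.09, SE 0.04, adjusted p = 0.151). Both genes had groups that did not overlap, in opposite directions, and missed the threshold. Psma3 passed it without WT replicate 2 (-0.16, adjusted p = 0.0336) and had a smaller change without WT replicate 1 (-0.07, adjusted p = 0.24). Psma1, Psma2, Psma4 and Psma5 had log2 changes of 0.01, -0.02, -0.10 and -0.00.

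Psma8, the testis-specific counterpart of Psma7, was the alpha gene that rose. It was 3.59 and 3.59 TPM in KO libraries, against 2.11 and 2.60 TPM in WT libraries (log2 change 0.46, SE 0.11, adjusted p = 0.0327). The KO values lie above both WT values. The call was lost without KO replicate 1, KO replicate 2 or WT replicate 1, under spike-in scaling and with no filter on low values (adjusted p from 0.0632 to 0.133). Psma8 stood at 0.0221 and 0.0234 of Psma7 in KO libraries and at 0.0141 and 0.0178 of it in WT libraries. The testis markers Sycp3 and Ddx4 stayed under 1 TPM in all libraries.

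In the beta rings the catalytic subunits did not all move alike. Psmb6, the caspase-like site, fell: it was 132 and 132 TPM in KO libraries, against 163 and 163 TPM in WT libraries (log2 change -0.30, SE 0.031, adjusted p = 0.00228). It had the smallest p of the members, and it was called without each of the 4 libraries in turn. Psmb5, the chymotrypsin-like site and the main target of inhibitors such as bortezomib, was 186 and 196 TPM in KO libraries, against 258 and 214 TPM in WT libraries. Its groups did not overlap, but the WT libraries lay far apart, and its change missed the threshold (log2 change -0.30, SE 0.089, adjusted p = 0.055). It passed without WT replicate 2 (-0.43, adjusted p = 0.00446) and was smaller without WT replicate 1 (-0.16, adjusted p = 0.0584). Psmb7, the trypsin-like site, was 213 and 217 TPM in KO libraries, against 224 and 205 TPM in WT libraries. Those groups overlap (log2 change 0.00, 95% interval -0.12 to 0.13). Whether the 3 changes differ from each other was not tested. Exons of Psmb7 overlap by up to 253 bases those of Nek6 on the other strand. Exons of Psmb5 overlap by up to 109 bases the microRNA gene Mir686 on the same strand.

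Of the structural beta subunits Psmb3 fell. It was 222 and 217 TPM in KO libraries, against 239.8 and 235 TPM in WT libraries (log2 change -0.12, SE 0.032, adjusted p = 0.0448). That call was lost without KO replicate 1, KO replicate 2 or WT replicate 1 (adjusted p from 0.0974 to 0.257). Psmb1, Psmb2 and Psmb4 were not called (log2 changes 0.09, 0.01 and -0.08). Psmb4 passed without WT replicate 2 (-0.16, adjusted p = 0.0355) and turned sign without WT replicate 1 (0.01, adjusted p = 0.909). Psmb11, the subunit of the thymic cortex, stayed at or under 0.04 TPM in all 4 libraries and did not pass the filter.

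Of the immunoproteasome subunits, which can replace the catalytic ones, 2 rose. Psmb8 was 169 and 174 TPM in KO libraries, against 154 and 146 TPM in WT libraries (log2 change 0.20, SE 0.041, adjusted p = 0.0204). Psmb9 was 65.3 and 64.0 TPM in KO libraries, against 58.9 and 53.3 TPM in WT libraries (log2 change 0.20, SE 0.055, adjusted p = 0.0433). Psmb10 was 44.3 and 46.7 TPM in KO libraries, against 43.2 and 40.2 TPM in WT libraries and was not called (log2 change 0.12, SE 0.053, adjusted p = 0.14). Within a library, where scaling cancels, Psmb8 stood at 0.91 and 0.891 of Psmb5 in KO libraries and at 0.598 and 0.681 of it in WT libraries. Psmb9 stood at 0.493 and 0.485 of Psmb6 in KO libraries and at 0.36 and 0.327 of it in WT libraries. Psmb10 stood at 0.208 and 0.215 of Psmb7 in KO libraries and at 0.193 and 0.196 of it in WT libraries. The ratios to Psmb5 and Psmb6 also hold the lower KO values of those genes, so they are a description. Psmb8 was no longer called without KO replicate 1 or KO replicate 2 (adjusted p from 0.0964 to 0.14), nor Psmb9 without KO replicate 1, KO replicate 2 or WT replicate 2 (adjusted p from 0.0756 to 0.195), and neither was called with trimmed-mean or spike-in scaling.

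**Figure D2:**
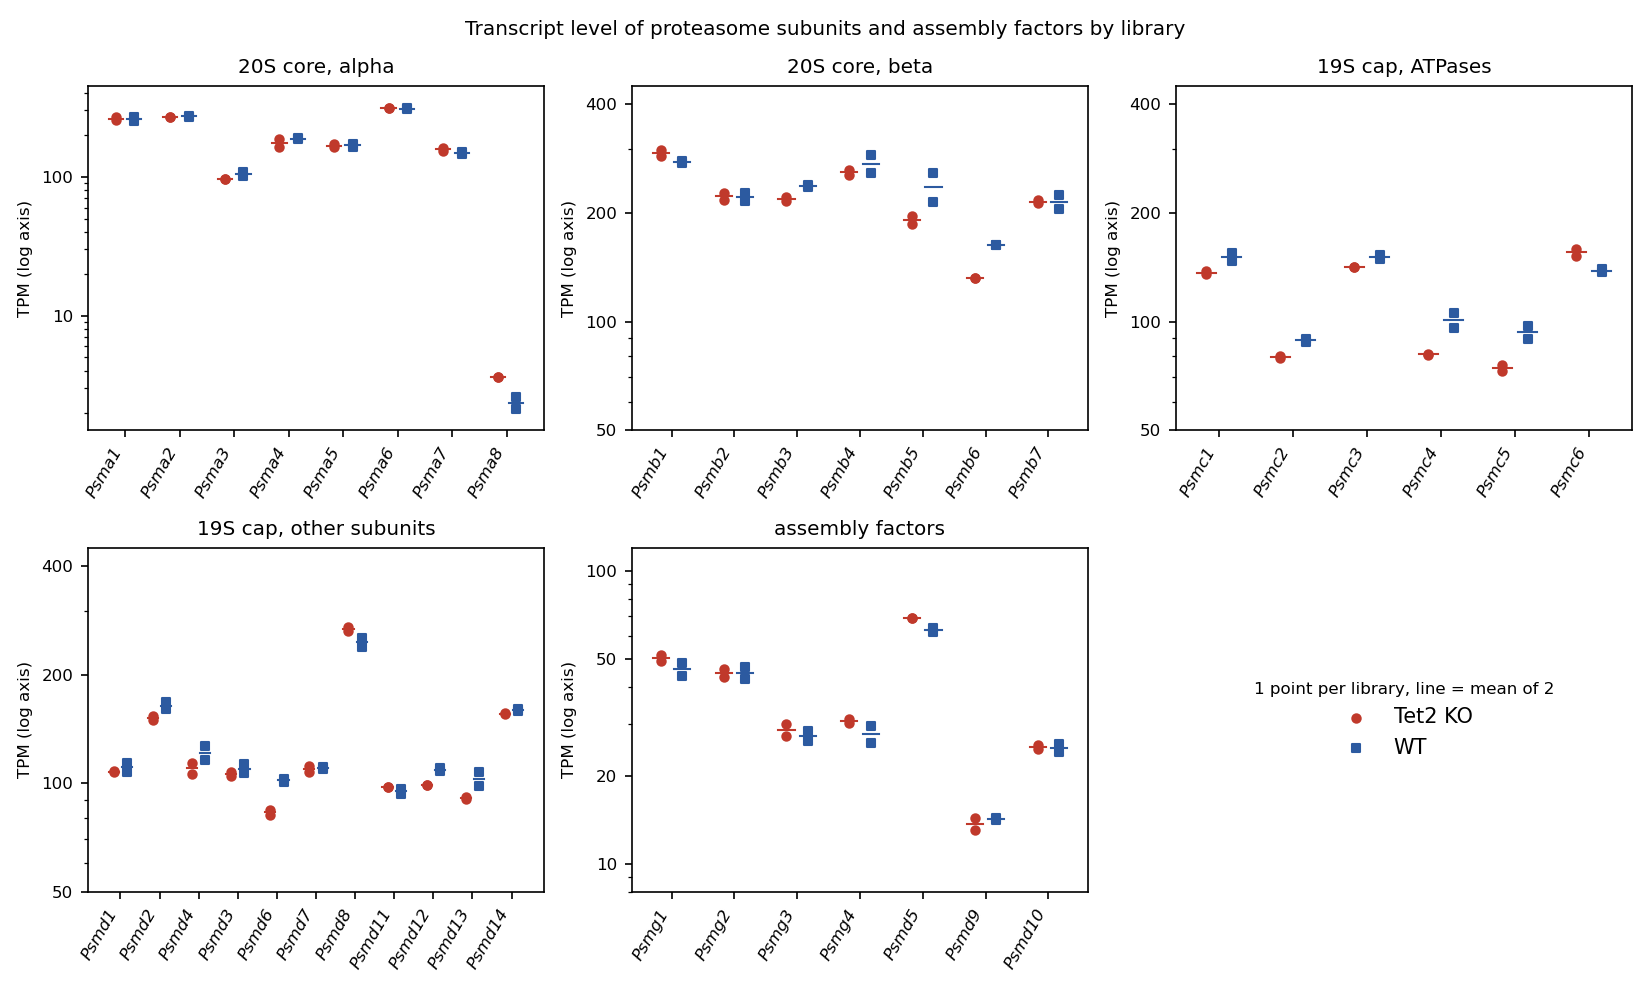
TPM of each kept member on a log axis, in panels by class, with KO libraries as circles left of WT libraries as squares and a line at each mean of 2. Psmb6, Psmc4, Psmc5 and Psmd6 show KO points below the WT points, Psmc6 and Psmd5 show them above, and Psma1, Psma6 and Psmb7 overlap.

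In the ATPase ring of the 19S cap 4 of the 6 genes fell and 1 rose (66.7% and 16.7%, against 11.6% and 18.9% of all genes). Psmc5 was 72.9 and 75.6 TPM in KO libraries, against 97.4 and 89.2 TPM in WT libraries (log2 change -0.32, SE 0.052, adjusted p = 0.00926). Psmc4 was 81.5 and 80.85 TPM in KO libraries, against 105 and 96.2 TPM in WT libraries (log2 change -0.31, SE 0.051, adjusted p = 0.00998). Both subunits belong to the motor that unfolds substrates, and mean TPM differed by -20.4% and -19.4% between KO and WT.

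Psmc2, another subunit of the motor, was 79.1 and 80.1 TPM in KO libraries, against 89.65 and 87.7 TPM in WT libraries (log2 change -0.15, SE 0.035, adjusted p = 0.0256). Psmc1, whose tail helps to open the gate of the core, was 138 and 135 TPM in KO libraries, against 147 and 155 TPM in WT libraries (log2 change -0.14, SE 0.039, adjusted p = 0.0449). For both, all KO values lie below all WT values. Psmc3 was 141 and 142 TPM in KO libraries, against 153 and 149 TPM in WT libraries. Its groups did not overlap either, but it was not called (log2 change -0.09, SE 0.032, adjusted p = 0.0808).

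Psmc6 ran against its partners in the ring. It was 159 and 151 TPM in KO libraries, against 137 and 139.9 TPM in WT libraries (log2 change 0.17, SE 0.039, adjusted p = 0.0281), with no overlap. The ring holds its subunits in equal number, and Psmc6 transcript stood at 1.55 and 1.48 times the mean of the other 5 ATPase genes in KO libraries and at 1.16 and 1.21 times it in WT libraries. That ratio does not depend on the scaling of a library, and it is a description, since the gene was picked for its change. The Psmc6 call was lost without KO replicate 1, KO replicate 2 or WT replicate 1 (adjusted p from 0.0768 to 0.184). It was also lost under trimmed-mean scaling (0.12, adjusted p = 0.0673), under spike-in scaling (0.05, adjusted p = 0.685) and once the GC and length trend was taken out (0.06, adjusted p = 0.248). The ATPase calls were lost without KO replicate 1 and without KO replicate 2, where fewer of all genes were called as well. The median log2 change of the 6 genes was -0.149 and -0.146 in these fits, against -0.148 with all libraries. Without WT replicate 1 the Psmc2 call was lost (log2 change -0.14), as was that of Psmc1 without WT replicate 2 (-0.10).

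Among the other 11 cap subunits 2 fell (18.2%, against 11.6% of all genes) and 9 were not called. Psmd6, a scaffold subunit of the lid, was 84.6 and 82.0 TPM in KO libraries, against 103 and 101 TPM in WT libraries (log2 change -0.29, SE 0.036, adjusted p = 0.00429). Without KO replicate 2 it missed the threshold (-0.27, adjusted p = 0.0509). Psmd12, another lid scaffold, was 98.7 and 98.8 TPM in KO libraries, against 108 and 110.1 TPM in WT libraries (log2 change -0.14, SE 0.033, adjusted p = 0.0258). Its call was lost without KO replicate 1, KO replicate 2 or WT replicate 2 (adjusted p from 0.0545 to 0.156). Psmd13, also of the lid, was 91.6 and 90.7 TPM in KO libraries, against 107 and 98.4 TPM in WT libraries (log2 change -0.17, SE 0.049, adjusted p = 0.0501). It lies at the threshold. It was called without WT replicate 2 (-0.23, adjusted p = 0.0143) and not without WT replicate 1 (-0.11, adjusted p = 0.106). Its exons overlap by up to 152 bases those of Sirt3 on the other strand, and the strand setting of the quantification is not given, so reads of these neighbours may be mixed.

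Psmd4, Psmd2 and Psmd14, which handle ubiquitinated substrates at the cap, were not called. Psmd4, a ubiquitin receptor, was 106 and 114 TPM in KO libraries, against 127 and 116 TPM in WT libraries (log2 change -0.14, SE 0.058, adjusted p = 0.123). Psmd2, the base scaffold on which shuttle factors dock, was 149.8 and 154 TPM in KO libraries, against 169 and 160.4 TPM in WT libraries (log2 change -0.12, SE 0.039, adjusted p = 0.0751). Without WT replicate 2 both were called (-0.20, adjusted p = 0.0497 for Psmd4, and -0.15, adjusted p = 0.0388 for Psmd2), while without WT replicate 1 both changes were -0.08 (adjusted p = 0.349 and 0.186). Psmd14, the deubiquitinase that removes the chain from the substrate, was 157 and 155 TPM in KO libraries, against 161 and 159 TPM in WT libraries (log2 change -0.03, 95% interval -0.11 to 0.04), and it was called after correction for GC and length (-0.18, adjusted p = 0.0415). The 3 genes had groups that did not overlap, all lower in KO libraries, as did 26.5% of all genes.

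The most abundant cap gene, Psmd8 of the lid, was 271 and 264 TPM in KO libraries, against 254 and 239 TPM in WT libraries (log2 change 0.12, SE 0.041, adjusted p = 0.0751). Its KO values lie above its WT values, and it was called without WT replicate 1 (0.16, adjusted p = 0.0336) and not without WT replicate 2 (0.08, adjusted p = 0.152). Psmd1, Psmd3, Psmd7 and Psmd11 had log2 changes of -0.04, -0.05, -0.01 and 0.04. Exons of Psmd1 overlap by up to 154 bases those of Gm21972 on the same strand. Over all 17 cap genes, 6 fell (35.3%), 1 rose (5.88%) and 10 were not called, with a median change of -0.12. Over the 15 core genes kept, 2 fell (13.3%), 1 rose (6.67%) and 12 were not called, with a median of -0.00. Of all genes 11.6% fell and 18.9% rose, with a median of 0.04. Whether cap and core differ was tested on the ratio of their summed TPM, which was 0.684 and 0.693 in KO libraries and 0.694 and 0.709 in WT libraries. Those values do not overlap, but the exact two-sided permutation test gave p = 0.333, the smallest p that 2 against 2 libraries allow.

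Assembly factors were expressed below most of the subunits they serve, and of the 7 Psmd5 was called (14.3%, against 30.5% of all genes). Psmd5, a chaperone of the 19S base, was 69.05 and 69.3 TPM in KO libraries, against 62.0 and 63.6 TPM in WT libraries (log2 change 0.14, SE 0.036, adjusted p = 0.0389), with no overlap. The rise was lost without KO replicate 1, KO replicate 2 or WT replicate 1 (adjusted p from 0.102 to 0.188). Spike-in scaling ended it too (0.02, adjusted p = 0.855), as did trimmed-mean scaling (0.09, adjusted p = 0.0846). Psmd9, also a base chaperone, was 14.3 and 13.1 TPM in KO libraries, against 14.1 and 14.3 TPM in WT libraries. Psmd10, known as the oncoprotein gankyrin, was 24.6 and 25.4 TPM in KO libraries, against 25.6 and 24.0 TPM in WT libraries. The groups of both overlap (log2 changes -0.05 and 0.01).

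The chaperones of the alpha ring work as the pairs Psmg1 with Psmg2 and Psmg3 with Psmg4. Psmg1 was 49.2 and 51.8 TPM in KO libraries, against 48.6 and 43.9 TPM in WT libraries (log2 change 0.13, SE 0.06, adjusted p = 0.173). Its partner Psmg2 was 46.3 and 43.4 TPM in KO libraries, against 42.7 and 47.0 TPM in WT libraries (log2 change 0.00, 95% interval -0.15 to 0.15). In that pair the groups overlap for Psmg2 and not for Psmg1. Psmg4 was 31.2 and 30.2 TPM in KO libraries, against 29.6 and 25.8 TPM in WT libraries (log2 change 0.15, SE 0.071, adjusted p = 0.175), and it passed without WT replicate 1 (0.24, adjusted p = 0.0392) but not without WT replicate 2 (0.05, adjusted p = 0.493). Psmg3 was 27.3 and 30.0 TPM in KO libraries, against 28.4 and 26.3 TPM in WT libraries, which overlap (log2 change 0.06, SE 0.066, adjusted p = 0.502). Its exons overlap by up to 237 bases those of Gm26938 on the same strand, so reads of these neighbours may be mixed.

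**Figure D3:**
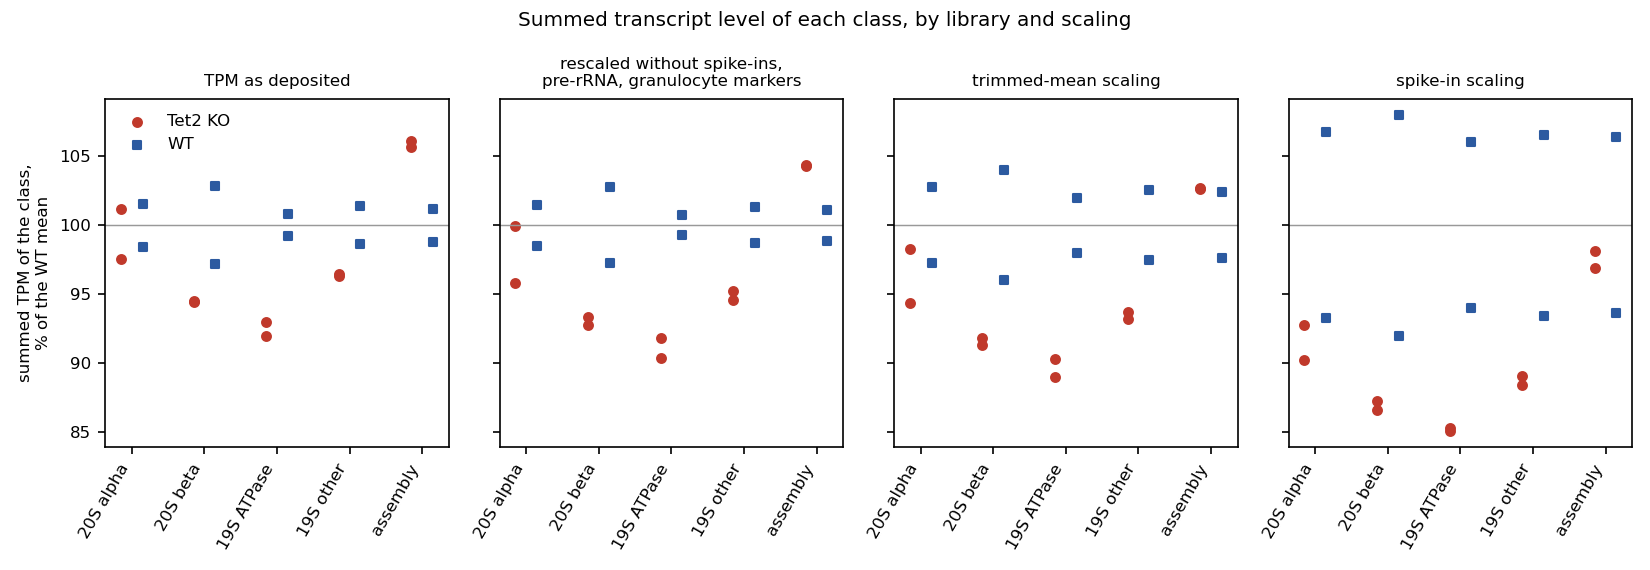
Summed TPM of each class in every library as a percentage of the WT mean, with KO circles left of WT squares, in panels for 4 scalings. The KO sums of beta, ATPase and other cap subunits lie below both WT libraries in every panel, while those of the assembly factors lie above both in 3 panels and between them with spike-in scaling.

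Summed over a class, the ATPase genes came to 672.1 and 665.0 TPM in KO libraries, against 728.9 and 717.2 TPM in WT libraries, a difference of -7.54%. The beta genes came to 1533.3 and 1532.7 TPM in KO libraries, against 1668.7 and 1576.9 TPM in WT libraries (-5.53%). The other cap genes came to 1381.2 and 1379.8 TPM in KO libraries, against 1452.2 and 1412.8 TPM in WT libraries (-3.63%). The KO and WT sums of these 3 classes did not overlap. The alpha genes came to 1469.2 and 1416.3 TPM in KO libraries, against 1474.5 and 1429.2 TPM in WT libraries (-0.628%), which overlap. Assembly factors alone were higher, at 262.0 and 263.2 TPM in KO libraries, against 250.9 and 245.0 TPM in WT libraries (5.9%). The exact two-sided permutation p was 0.667 for the alpha genes and 0.333, the smallest possible, for the other 4 classes, so no sum could pass a test. Without WT replicate 1 the beta difference was -2.79% and that of the other cap genes -2.28%, and without WT replicate 2 they were -8.13% and -4.93%. The alpha difference turned positive without KO replicate 2 (1.19%) or WT replicate 1 (0.945%) and was -2.45% without KO replicate 1 and -2.15% without WT replicate 2.

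TPM share a fixed total, so the size of small changes depends on the scaling. With trimmed-mean scaling, 11 members fell and 1 rose (15.2% and 14.5% of all genes did), with Psmc3, Psmd2 and Psmd13 added to those that fell. Scaled to the spiked-in control RNAs, which shifts the median change of all genes by -0.11, 6 members fell and 0 rose by limma (1 higher at an unadjusted p under 0.05), where 12.6% and 5.36% of all genes did. The spike-ins held 3.41% and 3.39% of the TPM in KO libraries and 2.98% and 3.3% in WT libraries, lowest in WT replicate 1. No called member changed sign with another scaling or after correction for GC and length. The rest of the 17 alternatives could not turn a sign, since the TPM of these members did not overlap between groups. The difference of the ATPase sum was -14.9% with spike-in scaling and -10.4% with trimmed-mean scaling. That of the assembly factor sum was 2.65% with trimmed-mean scaling and turned to -2.5% with spike-in scaling.

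**Figure D4:**
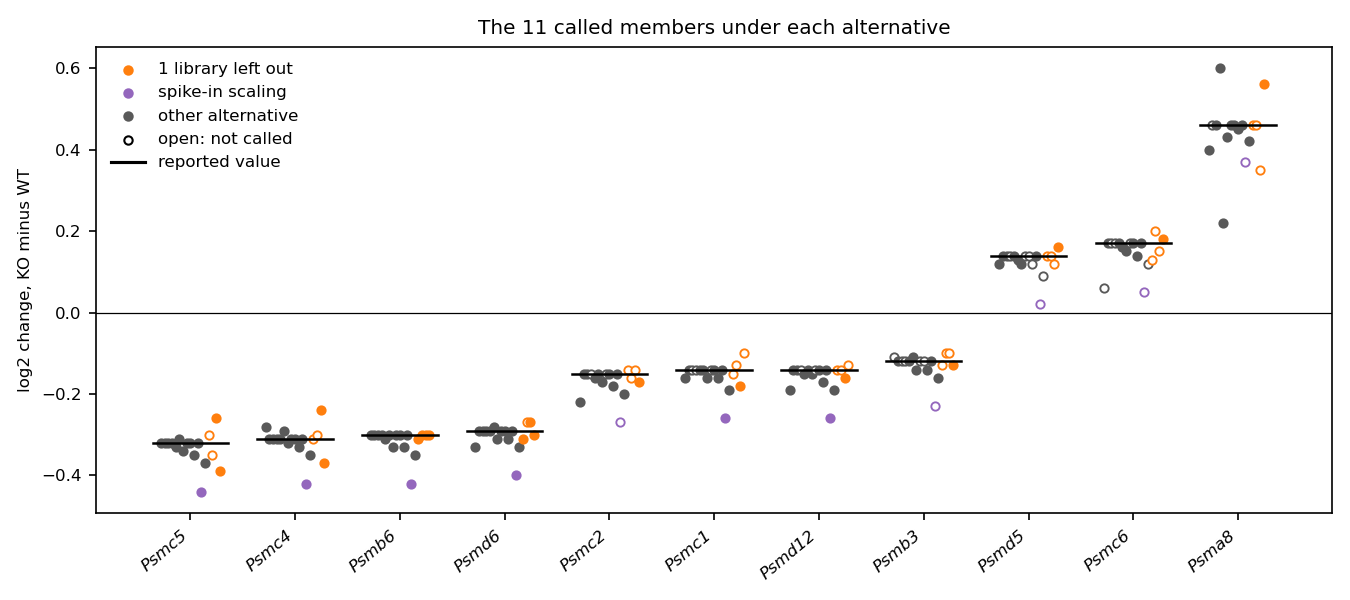
The log2 change, KO minus WT, of the 11 called members (black line) and its value under each of 17 alternatives (16 for Psma8), with open points where the call was lost. Psmb6 stayed called throughout and Psmd6 in all but 1, while Psmb3, Psmc6 and Psmd5 each lost the call in 9.

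Of 34 further genes of the pathway, 8 rose, 2 fell and 24 were not called, with a median log2 change of 0.05. The called share, 29.4%, is near the background of 30.5% of all genes (23.5% rose, where 18.9% of all genes did, and 5.88% fell, where 11.6% did). With trimmed-mean scaling 3 rose and 3 fell. Nfe2l1, the transcription factor that drives subunit genes, rose: it was 94.5 and 95.3 TPM in KO libraries, against 83.8 and 82.85 TPM in WT libraries (log2 change 0.19, SE 0.033, adjusted p = 0.0129). Ddi2 and Ngly1, enzymes that process its protein, had log2 changes of 0.02 and 0.19 and were not called. Adrm1, a ubiquitin receptor of the 19S base, fell: it was 72.4 and 74.0 TPM in KO libraries, against 83.5 and 80.2 TPM in WT libraries (log2 change -0.16, SE 0.039, adjusted p = 0.0321, or 0.0565 after correction for GC and length). Pomp, the maturation factor of the core, was 224 and 216 TPM in KO libraries, against 246 and 225 TPM in WT libraries and was not called (log2 change -0.10, SE 0.051, adjusted p = 0.209).

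Of the alternative caps, Psme4, a nuclear activator of the core, rose: it was 57.7 and 58.3 TPM in KO libraries, against 49.9 and 51.9 TPM in WT libraries (log2 change 0.18, SE 0.04, adjusted p = 0.0216). That call was lost after correction for GC and length (0.04, adjusted p = 0.52). Psme3, also nuclear, was 109.9 and 114 TPM in KO libraries, against 121 and 123 TPM in WT libraries (log2 change -0.12, SE 0.037, adjusted p = 0.0589). AI314180, the older symbol of Ecpas, an adaptor of the assembled proteasome, rose and was 103 and 104 TPM in KO libraries, against 92.75 and 91.9 TPM in WT libraries (log2 change 0.16, SE 0.033, adjusted p = 0.0199), a call that trimmed-mean scaling ended (0.11, adjusted p = 0.058). The calls among the 34 genes were all lost without KO replicate 1, and those of the genes that rose were all lost without KO replicate 2. In both fits fewer of all genes were called as well. The median log2 change of the 34 genes was 0.083 and 0.047 in these fits. Adrm1 and Psme4 also lost the call without WT replicate 1 (adjusted p = 0.0884 and 0.0623). Scaled to the spike-ins, 1 of the 34 was called, lower, and their median turned to -0.07.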

How the data were processed

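Gene expression was measured in 2 KO and 2 WT libraries, grouped by the genotype in their labels and made with a stranded mRNA kit per the labels' protocols. The authors deposited TPM per gene (24589 entries, of which 92 are spike-ins and 27 are gene names turned into dates). STAR, RSEM and mm10 are named in the submitters' processing notes. Software versions, gene annotation and counting by strand: not given in the sources used here. RefSeq lists pseudogenes of Psma5, Psmb5, Psmb6 and Psmb7, whose values are uncertain where the counting split reads between copies.

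Spike-ins were left out of the fit. Genes at 1 TPM or more in 2 or more libraries were kept, and log2(TPM + 1), which understates changes of low genes, was fitted with limma 3.58.1 in R 4.3.3 with a variance trend (2 residual and 3.51 prior degrees of freedom). P-values were adjusted over all 11837 genes. The fit was tested on simulated data. Sums and ratios took an exact permutation test. Members, lists and tests were chosen with earlier results of these data known. Values in all libraries were given for the catalytic subunits, Psmc2, Psmc5, Psmd2, Psmd4, Psmd14, all assembly factors, the 3 members of each class with the smallest p, those that fell, and the highest and lowest member. Of the pathway genes they were given for the 6 with the smallest p, of which 2 are not reported here, and for Pomp, Adrm1, Psme3 and Psmb8 to Psmb10. Psmc3, Psmc6 and Psmd8 were added after their values were seen, as was every other gene named with a call that depends on 1 library. The alternatives were 4 other scalings, 2 filters, 2 pseudocounts, 2 variance models, a replicate block and each library left out. A correction for GC and length (GENCODE M21, 97.4% of symbols matched) and a block with crossed numbers were chosen after seeing the data. No batch is labelled.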

Additional observations from a re-analysis of the deposited data

How the results depend on the processing

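Calls of single members are limited by 2 libraries a group, and read depth, which TPM do not keep, cannot be weighed. Directions held for every called member under the other scalings and the correction for GC and length. The remaining alternatives could not turn them, since the TPM of these members did not overlap between groups. The other pseudocounts, quantile normalization and robust variances lost 0 of the 11 calls. Where a setting moved a value, the cause was not tested, except that leaving out a library also removes replicates.

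With spike-in scaling 6 members were called (0 higher, or 1 with an unadjusted p under 0.05, by limma), among them 0 alpha, 1 beta, 3 ATPase and 0 assembly genes, 1 further pathway gene, and 2119 of all genes (634 higher). The class sums then differed by -8.54% (alpha), -13.1% (beta), -14.9% (ATPase), -11.3% (other cap) and -2.5% (assembly). With trimmed-mean scaling 1 member was higher, 4 other cap, 0 assembly and 6 further pathway genes were called, and the sums differed by -3.68%, -8.45%, -10.4%, -6.59% and 2.65% in the same order. Rescaled without spike-ins, pre-ribosomal RNA and granulocyte markers, 4 other cap and 0 assembly genes were called, and the sums differed by -8.94% (ATPase), -5.08% (other cap) and 4.31% (assembly). All genes split into 2237 higher and 1369 lower as deposited, 1718 and 1801 with trimmed-mean scaling, 634 and 1485 with spike-in scaling, 1877 and 1531 in that rescaling, 1953 and 1565 after correction for GC and length, and 1903 and 1608 with quantile normalization.

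With no filter 7 members were called (1 higher), among them 0 alpha, 1 beta and 3 ATPase genes, and 5 further pathway genes. Over all genes 2701 of 17360 were called in that fit. A filter at 5 TPM left 0 alpha calls, since Psma8 lies below it. With no variance trend 5 members were called (1 higher, 4 lower), among them 1 beta, 2 ATPase, 1 other cap and 0 assembly genes. It also called 2 further pathway genes, and 2878 of all 11837 genes. After correction for GC and length, 2 alpha genes and 1 beta gene were called, among 3518 of all 11837 genes.

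Libraries of the same number shared only that number (the correlation of their deviations was -0.114). With the replicate block 5 members were called (1 higher, 4 lower), among them 1 beta, 2 ATPase, 1 other cap and 0 assembly genes. Of all 11837 genes 3071 were then called, against 3606 without the block. With crossed numbers in the block 12 members were called, among them 4 other cap and 0 assembly genes, and 3463 of all genes.

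Leaving out each library in turn, the calls ranged from 1 to 15 for members (0 to 3 higher, 1 to 12 lower), 0 to 2 for alpha, 1 to 4 for beta, 0 to 4 for ATPase, 0 to 4 for other cap and 0 to 1 for assembly genes, 0 to 12 for further pathway genes and 1239 to 3255 for all genes (628 to 2190 higher, 602 to 1065 lower). Where limma called 0 genes of a class under an alternative, 0 to 4 of them had an unadjusted p under 0.05. With 1 library left out, class sums differed by -2.45% to 1.19% (alpha), -8.13% to -2.79% (beta), -8.29% to -6.79% (ATPase), -4.93% to -2.28% (other cap) and 4.65% to 7.19% (assembly).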
